A study of Mus musculus with 6 samples.

Results

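A set of 7 genes that serve MHC class II antigen presentation was followed across the cell classes of a mouse single-cell series: the chains H2-Aa, H2-Ab1 and H2-Eb1, the invariant chain Cd74, the transactivator Ciita, and the peptide exchange subunits H2-DMa and H2-DMb1. They were chosen by symbol, and each of the 7 matched 1 of the 31054 features of the deposited matrix. The series is about precursors of embryonic osteoclasts, which break down bone and belong to the macrophage lineage. The labels describe 6 samples in 3 groups of 2. Cx3cr1CreER; R26tdTomato embryos were exposed to 4-hydroxytamoxifen at E9.5, Csf1r-Mer-iCre-Mer; Csf1r-EGFP; R26tdTomato embryos at E8.5, and macrophage and monocyte lineage cells of the whole body were taken from both at E14.5. The remaining group was total bone marrow of wild-type C57BL/6 mice aged 2 months. In the embryos the drug turns on Cre only in cells then using the Cx3cr1 or Csf1r promoter, and these cells and their progeny carry the red reporter tdTomato. The sources used here do not say whether animals were pooled.

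The data were droplet-based 3-prime UMI counts (unique molecular identifiers, 1 per captured transcript) in 1 pooled matrix. Its barcodes carry an ending of 1, 2, 3 or 4 for which the labels give no key, so the cells are given as libraries 1 to 4. Which samples these are, and whether adult marrow is among them, is not known. No test between conditions was therefore possible: intervals below are exact Poisson intervals for levels and exact Clopper-Pearson binomial intervals for shares, at 95%, and cover counting error only. The 34372 kept cells held 546854113 UMIs, and the median per cell was 13161.5, 13077, 14773 and 14156 in libraries 1 to 4. Of 38269 barcode sequences, 761 occurred in more than 1 library. The doublet caller marked 1, 0, 214 and 0 cells, too few in libraries 1, 2 and 4 for it to have worked, so doublets may remain there.

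MHC class II molecules are pairs of an alpha and a beta chain that display peptides from the endosomal pathway to CD4 T cells. The invariant chain fills the groove of a new pair until endosomal proteases degrade it, and the H2-DM dimer then helps to exchange its last fragment for a peptide. CIITA binds no DNA itself: it docks onto RFX and NF-Y factors seated on the X and Y boxes of class II promoters. Dendritic cells, B cells and some macrophages are the classical presenting cells, while in many resting macrophages the genes are low until interferon-gamma induces Ciita.

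The promoters of 3 members show these boxes and are printed because these boxes are the sites through which CIITA is known to act. In the RefSeq promoter table (GRCm38.p6) H2-Aa, H2-Eb1, H2-DMb1 and H2-DMa had an entry, and H2-Ab1 and Ciita had none. Cd74 was left out of this look-up. Capitals mark matches to CTNGNAAC, written here for the X box, and to GATTGG, the Y box, searched on both strands. The 120 bases before the RefSeq start are given on the gene's strand. They lie at chr17:34287824-34287943 (minus strand) for H2-Aa, chr17:34305747-34305866 (plus strand) for H2-Eb1 and chr17:34153071-34153190 (plus strand) for H2-DMb1. For H2-DMb1 GENCODE begins the gene at 34153072, so nearly all of the printed stretch lies inside the gene as annotated there.
H2-Aa: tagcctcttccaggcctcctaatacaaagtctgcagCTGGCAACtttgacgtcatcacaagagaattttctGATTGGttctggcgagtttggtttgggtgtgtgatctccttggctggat
H2-Eb1: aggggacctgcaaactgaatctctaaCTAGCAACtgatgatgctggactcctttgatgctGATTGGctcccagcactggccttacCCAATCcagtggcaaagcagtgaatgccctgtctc
H2-DMb1: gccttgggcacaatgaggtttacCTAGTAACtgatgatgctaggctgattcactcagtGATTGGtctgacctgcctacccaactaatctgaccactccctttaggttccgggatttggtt

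In H2-Aa the X box began 84 bases and the Y box 49 bases before the RefSeq start, with 27 letters between them. The same order stood at 94 and 60 bases in H2-Eb1, with 26 letters between, and at 97 and 62 bases in H2-DMb1, with 27 letters between. H2-Eb1 also held CCAATC, the Y box on the other strand. Neither of the listed starts of H2-DMa held an X box in its 300-base window (250 bases before to 50 after the start), and 1 of them held a single GATTGG. Both windows, at chr17:34122582-34122881 and chr17:34125268-34125567, lie inside the gene as GENCODE annotates it (34119541 to 34139101). Other starts of H2-DMa were not searched, so this does not show that its promoter lacks the boxes. Among 32851 promoters of the same length, 13.2% held the X box letters on either strand, 16.1% the Y box letters, and 25 (0.0761%) the X box followed within 30 letters by the Y box on the gene's strand. Those 25 include H2-Aa, H2-Eb1, H2-DMb1 and H2-Ob, the beta chain of the H2-DM inhibitor H2-DO. The letters and the window were picked with these sequences in view, and a match is a description of letters, not a bound site.

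On GRCm38 the GENCODE annotation places 5 members on chromosome 17: H2-DMa at 34119541 to 34139101 on the plus strand, H2-DMb1 at 34153072 to 34160230 (plus), H2-Ab1 at 34257689 to 34269419 (plus), H2-Aa at 34282744 to 34287823 (minus) and H2-Eb1 at 34305867 to 34316674 (plus). Ciita lies on chromosome 16 at 10480059 to 10528418 on the plus strand. Cd74 was left out of these positions. H2-Eb1 overlaps 1 antisense gene, Ciita overlaps Dexi on the other strand, and H2-DMa overlaps 4 annotated genes, Brd2 among them. H2-DMb1 and H2-DMb2 are near-identical copies whose reads the counting may have split, so the level of each is uncertain.

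Cells were clustered with these 7 genes, the other class II chains, Cd1d1, tdTomato and the class I and interferon-gamma lists held out, and clusters were named from marker genes. The proteases, promoter factors and most costimulatory genes could enter the clustering, so their values by class are a description. Levels are CPM, the UMIs of a gene scaled to the same total in every class or library. The named classes used most below were macrophage-like cells (5981 cells; Pf4 4471 CPM, Mrc1 1059 CPM), monocyte-like cells (1586; Ly6c2 1102 CPM, Ccr2 430 CPM), microglia-like (1305), Kupffer cell-like (1663), B cell-like (1000), granulocyte-monocyte progenitor-like (2588), mast cell or basophil-like (1714), osteoclast-like (163) and erythroid cell-like cells (1191). B cell-like cells were led by Trbc2, Mzb1 and Cd79a, and 417 of them lay in library 3 and 574 in library 4. Chil3, listed as a monocyte marker, was at 0.142 CPM in monocyte-like cells. The other 4 clusters kept numbers. Cluster 1 (2679 cells) was led by Ly6d, Itgb7, Cd209a and Napsa and had 7 of 9 conventional dendritic cell markers at least 2-fold above all other cells, but its 10 leading genes held 1 of them, Cd209a, and also Ly6d, a plasmacytoid dendritic cell marker, so it was not named. Cluster 0 (4576 cells) was led by Ccr2, Ms4a4c and Pid1, cluster 3 (1610) by the interferon-induced genes Ifit3, Rsad2 and Isg15, and cluster 4 (4039) by Spp1, Ms4a7 and Cxcl16. The closest marker list was monocyte for clusters 0 and 3, with 1 and 2 of 6 markers at least 2-fold higher. For cluster 4 it was microglia, with 5 of 6, but Ms4a7 is a listed macrophage marker. The named monocyte-like and macrophage-like classes therefore need not hold all monocytes and macrophages of the data.

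The classical chains were concentrated in cluster 1 and were low in macrophage-like and monocyte-like cells. H2-Aa, the I-A alpha chain, stood at 541, 258, 696 and 510 CPM in libraries 1 to 4 of cluster 1, or 509 CPM over all (503 to 515). It was 274, 225, 163 and 101 CPM in cluster 3 and 48.6, 29.8, 65.9 and 28.0 CPM in cluster 0. B cell-like cells had 88.1 and 86.9 CPM in libraries 3 and 4. In monocyte-like cells it was 16.8, 1.0, 13.1 and 6.10 CPM, and in macrophage-like cells 3.52, 1.54, 2.80 and 9.15 CPM. Every library of clusters 1 and 3 lay above every library of the monocyte-like and macrophage-like classes. The monocyte-like libraries overlapped the macrophage-like ones, and library 2 was the lowest of both.

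H2-Ab1 and H2-Eb1, the beta chains of I-A and I-E, followed the same order. H2-Ab1 had 494, 227, 603 and 450 CPM in libraries 1 to 4 of cluster 1, against 4.8, 2.46, 5.33 and 8.85 CPM in macrophage-like cells. H2-Eb1 had 315, 136, 368 and 275 CPM in cluster 1, against 2.36, 1.45, 1.16 and 5.77 CPM in macrophage-like cells. Monocyte-like cells held 9.07 CPM of H2-Ab1 (7.99 to 10.3) and 4.77 CPM of H2-Eb1 (3.99 to 5.65) over all libraries. The levels of the lower classes rested on few cells. Of the chain UMIs of microglia-like cells, whose H2-Aa was 3.15, 0.788, 77.0 and 20.4 CPM in libraries 1 to 4, 2 cells held 71.6%. In endothelial cell-like cells 1 cell held 452 of 491 chain UMIs.

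**Figure D1:**
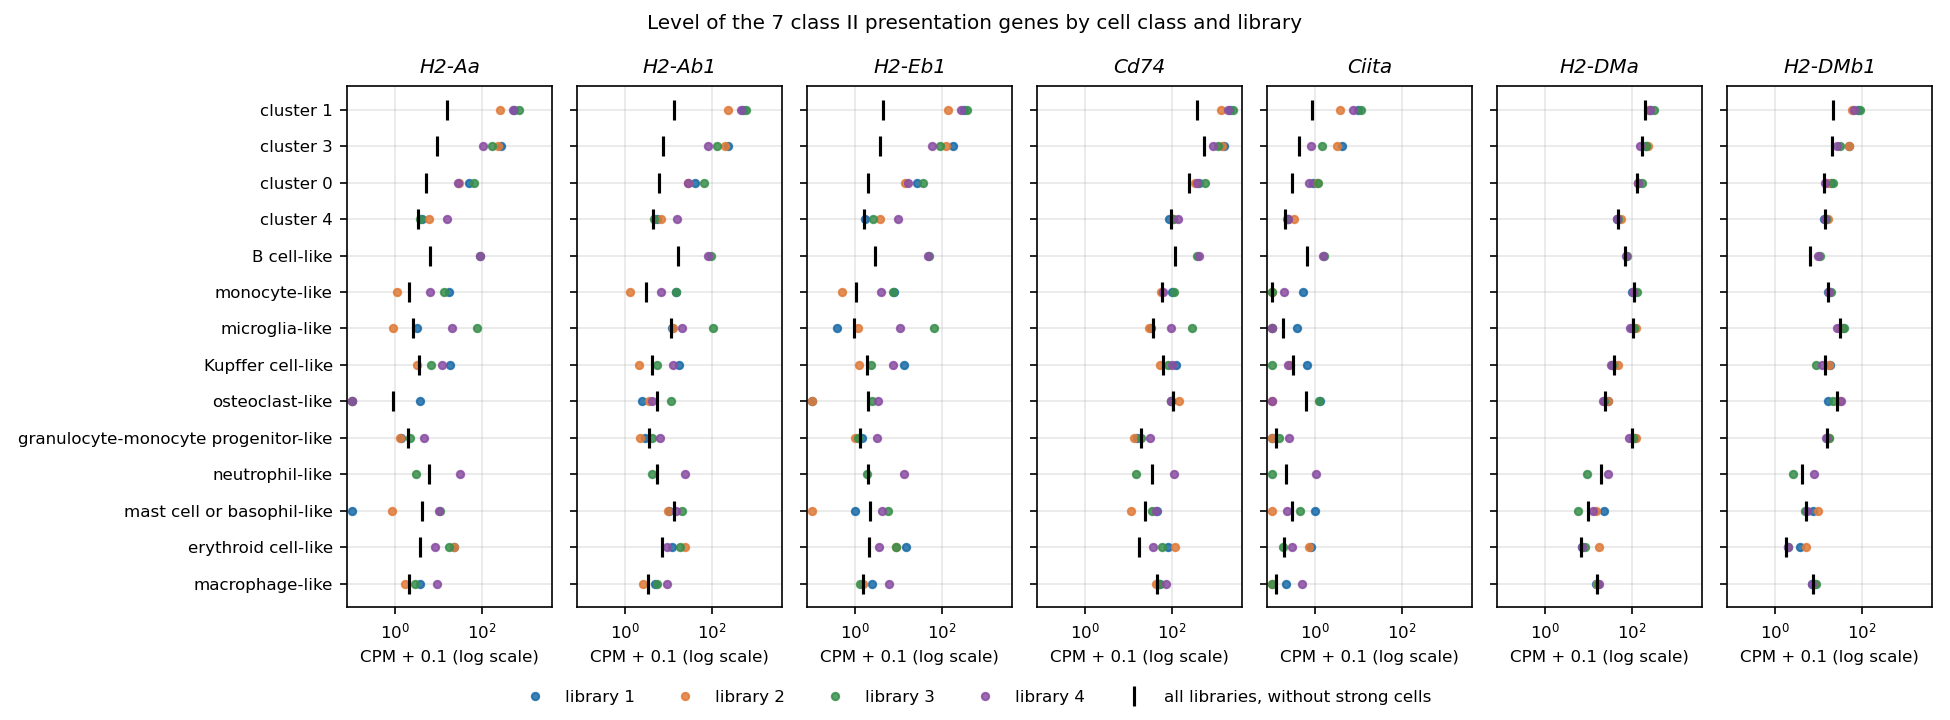
Level of the 7 genes by cell class, as CPM + 0.1 on a log axis. Each point is 1 library, and the black tick is the level over all libraries without the strong cells defined further on. Points of cluster 1 lie far to the right of its ticks for the 3 chains, Cd74 and Ciita, and close to them for H2-DMa.

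Shares of cells with a UMI were taken after each cell was thinned to 2000 UMIs, and erythroid cell-like cells, which should lack the chains, give the level of free RNA and doublets. H2-Aa was found in 587 of 2645 thinned cells of cluster 1 (22.2%, 20.6 to 23.8), 6.98% in cluster 3 and 3.01% in cluster 0. It was found in 10 of 1580 monocyte-like cells (0.633%, 0.304 to 1.16) and 25 of 5749 macrophage-like cells (0.435%, 0.282 to 0.641), against 13 of 1044 erythroid cell-like cells (1.25%, 0.665 to 2.12). Unthinned, the shares were 2.96% in monocyte-like, 2.57% in macrophage-like and 5.12% in erythroid cell-like cells. Median depth was 16172.5 UMIs in monocyte-like cells, 12752 and 13404.5 UMIs in the 2 macrophage-like clusters and 24792 UMIs in erythroid cell-like cells. The H2-Aa shares of the monocyte-like and macrophage-like classes as a whole therefore lay at or below background and are not read as expression.

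Cd74, the invariant chain, stood at 1957 CPM in cluster 1 (1945 to 1969), 1196 CPM in cluster 3, 392 CPM in B cell-like cells and 391 CPM in cluster 0. Cluster 4 had 109 CPM, osteoclast-like cells 102 CPM, Kupffer cell-like cells 89.9 CPM, monocyte-like cells 80.0 CPM and macrophage-like cells 53.0 CPM. In libraries 1 to 4 it was 99.2, 54.2, 111 and 62.8 CPM in monocyte-like cells and 48.9, 42.0, 51.6 and 70.8 CPM in macrophage-like cells, so the libraries overlapped. After thinning Cd74 was found in 46.5% of cluster 1, 44.9% of cluster 3, 29.0% of cluster 0, 11.8% of monocyte-like (10.3 to 13.5), 8.24% of macrophage-like (7.55 to 8.99) and 2.68% of erythroid cell-like cells (1.79 to 3.85). These shares, unlike those of H2-Aa, lay above the erythroid one in both classes. Osteoclast-like cells combined 102 CPM of Cd74 with 0.787 CPM of H2-Aa.

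Ciita, the transactivator, was scarce everywhere and highest in cluster 1. It had 9.38, 3.56, 11.4 and 7.5 CPM in libraries 1 to 4 of cluster 1, or 8.0 CPM over all (7.27 to 8.79). Cluster 3 had 2.14 CPM, B cell-like cells 1.45 CPM and cluster 0 0.851 CPM. Macrophage-like cells held 11 Ciita UMIs in all, 0.137 CPM (0.0685 to 0.245), and monocyte-like cells 3 UMIs, 0.107 CPM (0.0220 to 0.312). After thinning it was found in 2.42% of cluster 1, in 0 of 1580 monocyte-like cells, in 0 of 5749 macrophage-like cells and in 2 of 1044 erythroid cell-like cells. By the rough rule of 3 divided by the number of cells, not an exact interval, the counts of 0 allow about 0.190% of monocyte-like and 0.0522% of macrophage-like cells with a UMI at that depth. At 2000 UMIs per cell a transcript this rare is hardly detectable, so they set no limit on cells expressing Ciita. Unthinned, 0.126% of monocyte-like and 0.1% of macrophage-like cells had a Ciita UMI, against 0.588% of erythroid cell-like cells. Megakaryocyte-like cells, 44 in number, held 4 Ciita UMIs (3.24 CPM, 0.883 to 8.30).

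The H2-DM subunits were spread differently from the chains. H2-DMa, the alpha subunit, was 264 CPM in cluster 1, 192 CPM in cluster 3 and 138 CPM in cluster 0. It was 98.2, 109, 129 and 102 CPM in libraries 1 to 4 of monocyte-like cells, 101, 121, 111 and 90.5 CPM in microglia-like cells and 116, 124, 102 and 82.2 CPM in progenitor-like cells. In macrophage-like cells it was 14.8, 15.5, 16.7 and 17.4 CPM. All libraries of the other 3 classes lay above all macrophage-like ones. After thinning H2-DMa was found in 19.9% of monocyte-like cells (17.9 to 21.9), 3.24% of macrophage-like cells (2.79 to 3.73) and 1.05% of erythroid cell-like cells (0.527 to 1.88). H2-DMb1, the beta subunit, was 72.2 CPM in cluster 1, 37.9 CPM in cluster 3, 31.9 CPM in microglia-like, 26.5 CPM in osteoclast-like, 17.3 CPM in monocyte-like and 7.62 CPM in macrophage-like cells. H2-DMb2, its near-identical copy, was 26.0 CPM in cluster 1, 18.1 CPM in monocyte-like cells, 17.6 CPM in progenitor-like cells and 1.41 CPM in macrophage-like cells.

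Differences from macrophage-like cells were taken as log2(CPM + 10), which understates those of low genes, and a gene was counted as higher or lower from 2-fold on this scale. In monocyte-like cells 3.93% of 11235 genes were higher and 5.65% lower. Of the 6 members with enough UMIs, 1 was higher, H2-DMa, by 2.21 (2.12, 2.22, 2.39 and 2.03 in libraries 1 to 4). H2-DMb1 differed by 0.63, Cd74 by 0.51, H2-Aa by 0.40, H2-Ab1 by 0.32 and H2-Eb1 by 0.21. The last 4 were positive in libraries 1 and 3 and negative in library 4, and 3 of them, all but Cd74, were negative in library 2. The median of the members was 0.46, beside -0.12 over all genes, and 0.81, 0.12, 0.78 and -0.18 in libraries 1 to 4. Without strong cells it was 0.17. The count of 1 depended on where the classes were bounded, as described further on for strong cells. With stricter limits on cells all 6 passed 2-fold (H2-Aa 4.01, H2-Ab1 3.68, H2-Eb1 3.38, Cd74 4.10, H2-DMa 2.78, H2-DMb1 1.46), as they did with genes centred within libraries, where they ranged from 1.06 for H2-DMb1 to 3.18 for H2-Aa. With a per-cell marker gate H2-Aa (1.13), Cd74 (1.11) and H2-DMa (1.69) passed it. Median-of-ratios size factors in place of library totals raised all differences between these classes by 0.21 before the pseudocount, and the median of the members was then 0.60.

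In cluster 1, 3.09% of 11549 genes were higher than in macrophage-like cells and 4.72% lower, and 6 of 7 members were higher, all but Ciita, with a median of 4.49 beside -0.04 over all genes. In microglia-like cells, where 2.56% of genes were higher and 1.91% lower, 3 of 6 members were higher: H2-DMa by 2.16, H2-DMb1 by 1.25 and H2-Ab1 by 1.21. For H2-Ab1 only library 3 passed 2-fold (2.93, against 0.55, 0.86 and 0.67 in the others), and there 1 cell held 326 of 343 chain UMIs. Without strong cells H2-Ab1 was 11.4 CPM in microglia-like and 3.27 CPM in macrophage-like cells, which is below 2-fold on this scale. None of 6 was 2-fold apart in Kupffer cell-like cells, where 1.90% of genes were higher and 1.40% lower. In B cell-like cells 5 of 6 were higher, all but H2-DMb1, beside 5.55% of genes higher and 7.61% lower.

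The genes that serve the same pathway were read from lists. Of 7 RFX and NF-Y family and related factors (Rfx5, Rfxap, Rfxank, Nfya, Nfyb, Nfyc, Creb1), none was 2-fold apart from macrophage-like cells in cluster 1, monocyte-like, microglia-like, Kupffer cell-like or B cell-like cells. With 3.09% of all genes higher and 4.72% lower in cluster 1, and similarly few in the other classes, 0 of 7 is near the share over all genes. Nfyc, the most abundant, was 57.8 CPM in cluster 1, 55.3 CPM in monocyte-like cells and 37.8 CPM in macrophage-like cells. Rfx5, which binds the X box, was 3.65 CPM in cluster 1, 2.60 CPM in monocyte-like cells and 3.26 CPM in macrophage-like cells.

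Most of the endosomal proteases, but not Ctss, were lower in monocyte-like cells and cluster 1 than in macrophage-like cells by at least 2-fold. In monocyte-like cells 4 of 5 were lower than in macrophage-like cells, with a list median of -1.84. Ctsb stood at 892 CPM in monocyte-like and 5109 CPM in macrophage-like cells, Ctsd at 575 and 2088 CPM, and Lgmn, an asparaginyl endopeptidase, at 159 and 2210 CPM. Ctss, the protease that trims the invariant chain in dendritic and B cells, was 1023 CPM in monocyte-like and 862 CPM in macrophage-like cells. The same 4 genes, Ctsb, Ctsd, Lgmn and Ctsl, were lower in cluster 1 (median -2.36). Microglia-like cells had 4 of 5 higher (median 2.02), with Ctss at 4095 CPM against 862 CPM in macrophage-like cells and Ctsd at 8843 CPM against 2088 CPM. All 5 were lower in B cell-like cells (median -3.21). Over all genes 5.65% were lower in monocyte-like cells, 4.72% in cluster 1 and 7.61% in B cell-like cells. In microglia-like cells 2.56% of all genes were higher.

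Of 7 costimulatory and class II turnover genes, 2 were higher and 2 lower in monocyte-like cells. Over all genes 3.93% were higher and 5.65% lower in that class. March1, a ligase that ubiquitinates class II and CD86, was 37.8 CPM in monocyte-like and 13 CPM in macrophage-like cells. Cd86, a ligand of CD28, was 91.3 CPM in monocyte-like and 258 CPM in macrophage-like cells, and Cd83 was 63.7 and 233 CPM. Cd1d1, which presents lipids, was 16.7 CPM in monocyte-like and 3.32 CPM in macrophage-like cells. Of 10 class I genes with enough UMIs, 2 were higher in cluster 1, the immunoproteasome subunits Psmb8 (574 CPM, against 226 CPM in macrophage-like cells) and Psmb9 (189 CPM, against 79.3 CPM). Over all genes 3.09% were higher in cluster 1. None of 8 interferon-gamma response genes was 2-fold higher in any of the 5 classes, where 1.90% to 5.55% of all genes were, so 0 of 8 is near that share.

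A cell was called strong when H2-Aa, H2-Ab1 and H2-Eb1 together reached at least 1000 CPM within that cell. This held for 913 of 34372 cells (2.66%), with 2.26%, 1.77%, 3.34% and 3.06% in libraries 1 to 4, and those cells held 92.9% of all chain UMIs. By contrast 85.4% of cells had no chain UMI. Near the threshold, 232 cells lay between 500 and 1000 CPM and 170 between 1000 and 2000 CPM.

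Strong cells were 554 of 2679 in cluster 1 (20.7%, 19.2 to 22.3), or 19.8%, 13.8%, 25.8% and 21.2% in libraries 1 to 4. This cluster held 60.7% of all strong cells. They were 95 of 1610 in cluster 3 (5.90%), 38 of 1000 in B cell-like cells (3.80%) and 120 of 4576 in cluster 0 (2.62%, 2.18 to 3.13). Unnamed clusters together held 84.9% of the strong cells.

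In monocyte-like cells 4 of 1586 were strong (0.252%, 0.0688 to 0.644), namely 1 of 259, 0 of 269, 1 of 469 and 2 of 589 in libraries 1 to 4. In macrophage-like cells 8 of 5981 were strong (0.134%, 0.0578 to 0.263), namely 3 of 1908, 0 of 1598, 1 of 1029 and 4 of 1446. Without library 4 the macrophage-like share was 0.0882%. Both named classes together held 1.31% of all strong cells, and clusters 0, 3 and 4 are not counted in them. Erythroid cell-like cells, given as background, had 10 of 1191 (0.840%, 0.403 to 1.54). Among the other macrophage kinds, 2 of 1305 microglia-like (0.153%), 15 of 1663 Kupffer cell-like (0.902%) and 0 of 163 osteoclast-like cells were strong, the last with an interval up to 2.24%. The macrophage-like share thus lay below the share of a class that should have no such cell. The monocyte-like share was lower too, but its interval overlapped the erythroid one. Erythroid cell-like cells numbered 160, 79, 362 and 590 in libraries 1 to 4, so this background was not matched by library.

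**Figure D2:**
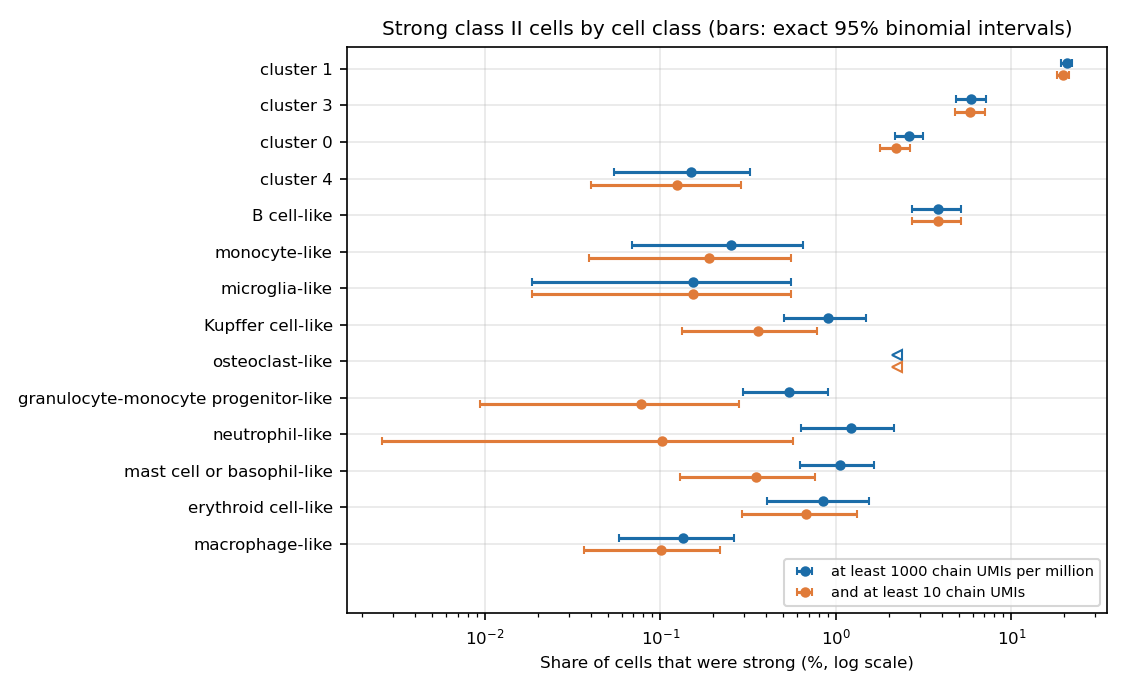
Share of strong cells by class (percent, log axis), with exact 95% binomial intervals, by the threshold of 1000 CPM alone and with at least 10 chain UMIs as well. Open triangles mark the upper end of the interval where no cell was strong. The share falls from 20.7% in cluster 1 to 0.134% in macrophage-like cells, and the added UMI minimum moves progenitor-like and neutrophil-like cells most.

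Part of the strong cells rested on very few molecules. In the shallowest kept cells 1000 CPM is reached with 2 UMIs, and 104 of the 913 had under 10 chain UMIs. They made up 12 of 14 strong progenitor-like, 11 of 12 neutrophil-like, 12 of 18 mast cell or basophil-like and 9 of 15 Kupffer cell-like cells. With at least 10 chain UMIs required, a minimum added after the data were seen, 527 cells of cluster 1, 3 monocyte-like cells (0.189%) and 6 macrophage-like cells (0.1%) remained of 809 in all.

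**Figure D3:**
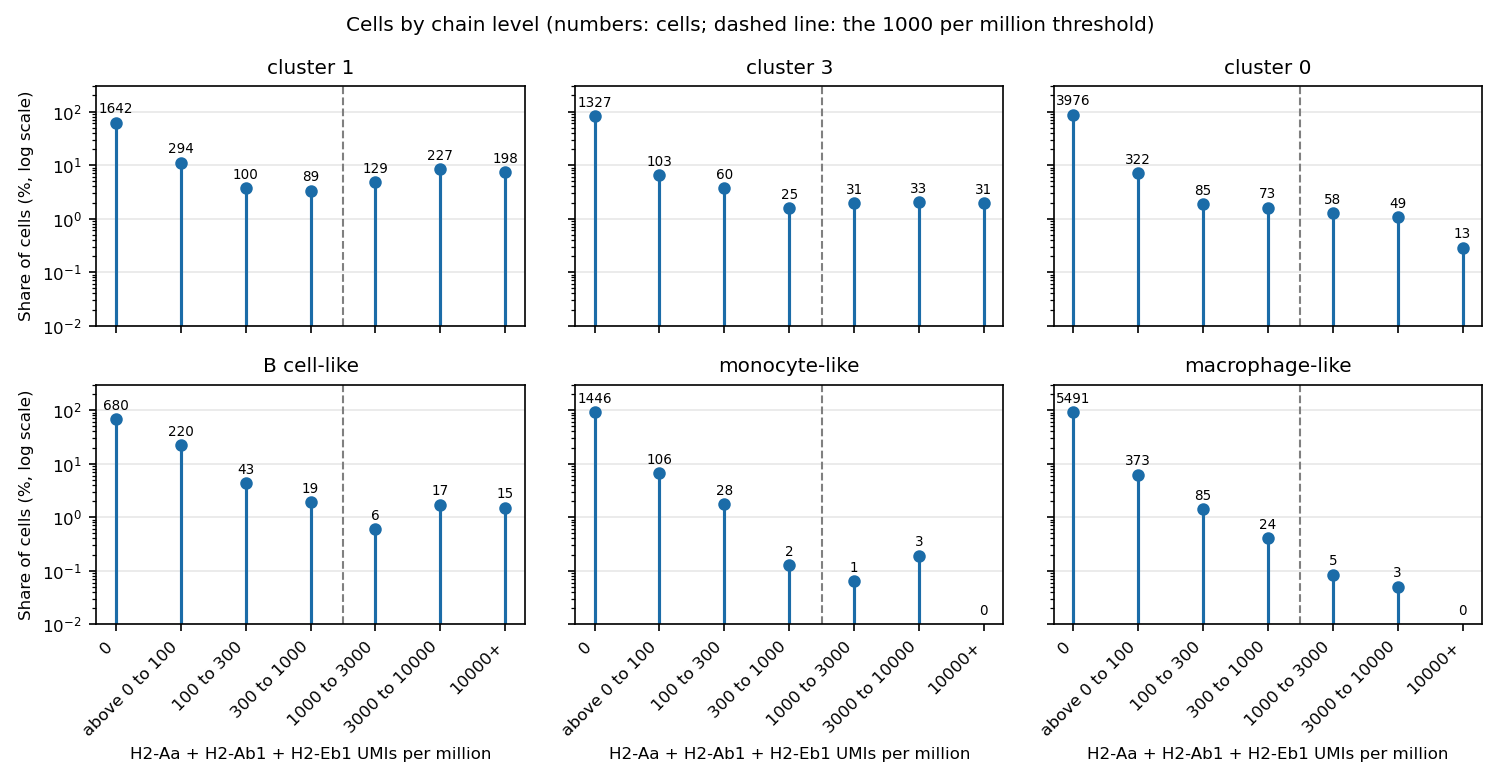
Cells of 6 classes by the summed level of H2-Aa, H2-Ab1 and H2-Eb1 in CPM of the cell, as percent of the class on a log axis, with the number of cells above each stem and the threshold as a dashed line. Cluster 1 has 227 and 198 cells in its 2 highest bins and 89 in the bin just below the threshold, whereas monocyte-like and macrophage-like cells have 0 in the highest bin.

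The strong cells of these 2 classes could be described one by one. Of the 8 macrophage-like cells, 2 were shallow, with 1036 and 1369 UMIs and 2 chain UMIs each. The other 6 had 16791 to 27664 UMIs, 41 to 140 chain UMIs and 78 to 177 Cd74 UMIs. They held 33 to 254 UMIs of macrophage markers and 2 to 7 UMIs of dendritic cell markers, with 0 to 3 UMIs of B cell markers. Of the 4 monocyte-like cells, 1 had 3896 UMIs and 4 chain UMIs. The other 3 had 27249 to 52572 UMIs, 115 to 192 chain UMIs, 58 to 219 UMIs of monocyte markers and 2 to 7 UMIs of dendritic cell markers. Summed, the 8 strong macrophage-like cells had 8 UMIs of Cd209a (57.5 CPM, against 0.187 CPM in the other macrophage-like cells), 9 of Ciita (64.6 CPM, 29.6 to 123, against 0.0250 CPM) and 81 of Plac8, a monocyte marker (582 CPM, against 38.8 CPM). Mrc1 was 783 CPM in these strong cells and 1059.6 CPM in the other cells of the class. The sums thus held macrophage markers together with markers of other cells. Whether they are doublets was not tested, and the doublet caller had not worked in libraries 1 and 4, which held 7 of the 8.

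How rare strong cells were among monocyte-like cells depended on where the class was bounded. Under a gate without clusters, cells with at least 2 UMIs of both Ly6c2 and Ccr2 had 26 strong of 2029 (1.28%, 0.839 to 1.87), and cells with at least 2 UMIs of both Mrc1 and Pf4 had 32 of 10000 (0.320%, 0.219 to 0.451). Of the 26, 15 belonged to cluster 1 and 3 to the monocyte-like class, and of the 32, 18 belonged to cluster 0 and 4 to the macrophage-like class. With stricter limits on cells, clustering placed 6465 cells in the monocyte-like class, and 7.67% were strong. Of these cells 29.6% came from cluster 1, 28.4% from cluster 0 and 12.7% from cluster 3. Of its 496 strong cells, 355 came from cluster 1, 79 from cluster 3 and 53 from cluster 0. With genes centred within libraries the class held 5285 cells, and 4.47% were strong. Of these cells 24.3% came from cluster 1, 23.8% from cluster 0 and 8.33% from cluster 3. Of its 236 strong cells, 172 came from cluster 1, 29 from cluster 0 and 28 from cluster 3. In macrophage-like cells the share was 0.0413% and 0.0576% under the same 2 settings. A gate on at least 1 UMI of both Flt3 and Cd209a, dendritic cell markers, took 238 cells, of which 85 were strong (35.7%, 29.6 to 42.2; 26, 14, 22 and 23 cells in libraries 1 to 4).

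Within the clusters that held most strong cells, the members not used in the threshold separated strong from other cells to different degrees. In cluster 1 Cd74 was 14945, 11917, 11068 and 10983 CPM in strong cells of libraries 1 to 4, against 403, 397, 392 and 339 CPM in the other cells. Ciita was 73.5, 39.3, 53.0 and 48.2 CPM in strong cells, against 0.767, 0.508, 1.24 and 0.581 CPM, and 43.0% of strong cells had a Ciita UMI, against 1.46% of the others. H2-DMb1 was 392 CPM in strong and 21.1 CPM in other cells, and H2-DMa 669 and 200 CPM, so the beta subunit differed more than the alpha subunit. In cluster 3 Ciita was 34.7 CPM in strong and 0.330 CPM in other cells, H2-DMb1 366 and 19.7 CPM, and H2-DMa 633 and 167 CPM. In cluster 0 Ciita was 31.7 and 0.196 CPM, H2-DMb1 204 and 13.4 CPM, and H2-DMa 455 and 131 CPM. Strong cells were the higher in every library of the 3 clusters for all 4 genes. For background, 1.25% of genes in cluster 1 were 2-fold higher in strong cells and 0.639% lower, 0.652% and 1.18% in cluster 3, and 0.574% and 0.0669% in cluster 0.

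The H2-DO chains were higher in strong cells of cluster 1, and the promoter factors named here differed by less than 2-fold. Only 1.25% of genes in cluster 1 were 2-fold higher in strong cells and 0.639% lower. The lack of such a difference in a few factors is therefore not a result about them. H2-Oa, the alpha chain of H2-DO, was 76.9 CPM in strong and 14.1 CPM in other cells of cluster 1, and H2-Ob, its beta chain, 9.28 and 0.381 CPM. Rfx5 was 4.51 and 3.52 CPM, Rfxap 23.2 and 20.9 CPM, Nfyc 51.6 and 58.8 CPM, and Creb1 28.0 and 24.6 CPM, differences below 2-fold. The proteases of cluster 1 differed by less than 2-fold: Ctss was 990 CPM in strong and 815 CPM in other cells, Ctsb 504 and 709 CPM, Ctsd 239 and 426 CPM, and Ctsl 73.1 and 139 CPM. Cd83, which stabilises surface class II and CD86, was 320.5 CPM in strong and 131 CPM in other cells, and Cd86 itself 94.8 and 83.5 CPM. Among class I genes H2-K1 was 228 CPM in strong and 142 CPM in other cells.

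**Figure D4:**
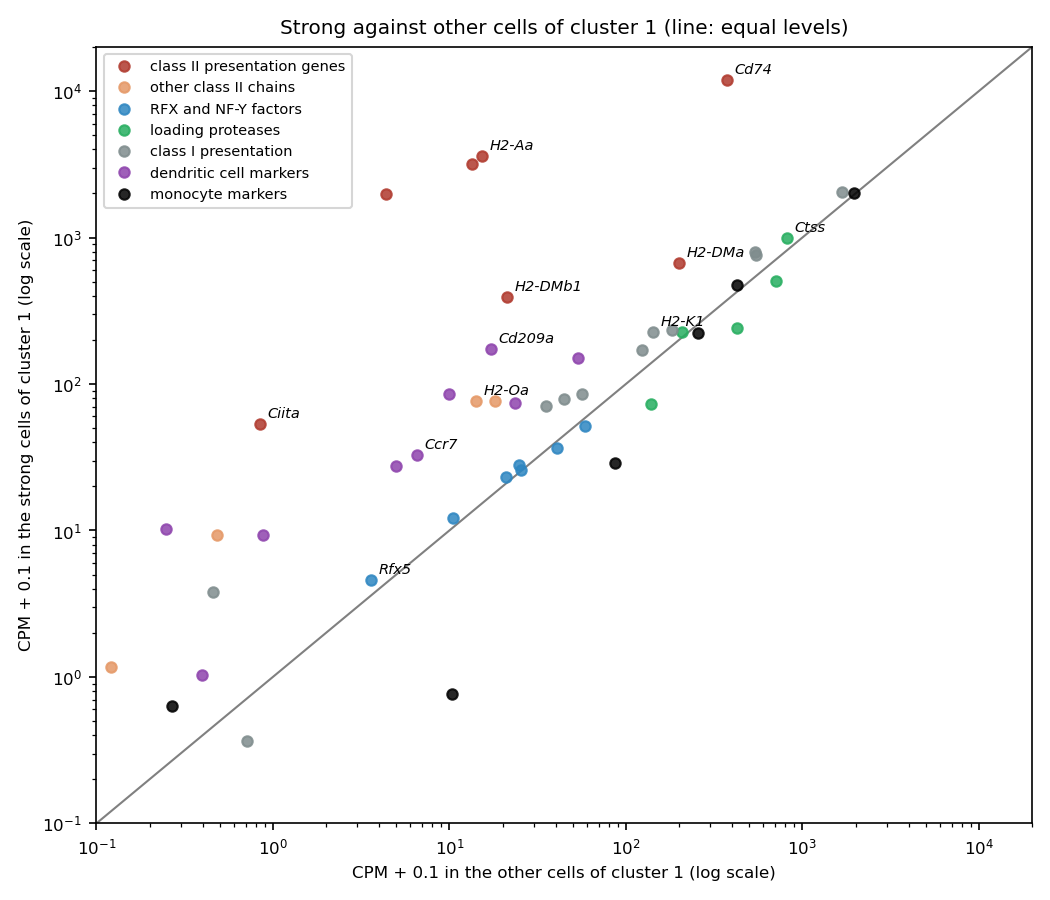
Levels in the strong cells of cluster 1 (vertical axis) against the other cells of that cluster (horizontal axis), as CPM + 0.1 on log axes, with 1 point per gene coloured by list and a line at equal levels. Class II genes and dendritic cell markers lie above the line, RFX and NF-Y factors on it (Rfx5 4.51 and 3.52 CPM), and the 3 chains define the strong cells and are shown only as a description.

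Dendritic cell markers moved with the members. In cluster 1 Flt3, a receptor of dendritic cell progenitors, was 73.9 CPM in strong and 23.5 CPM in other cells, Zbtb46, a factor of the classical dendritic lineage, 9.28 and 0.784 CPM, Itgax, which encodes CD11c, 27.4 and 4.85 CPM, and Batf3 151 and 53.4 CPM. Cd209a, or DC-SIGN, was 430, 221, 100.1 and 96.5 CPM in strong cells of libraries 1 to 4, against 21.0, 16.6, 20.1 and 13.6 CPM in other cells. Clec9a, a receptor of cross-presenting dendritic cells, was 0.714, 0, 10.9 and 16.8 CPM in strong cells, and at most 0.291 CPM in other cells of any library. Irf8 was 92.8 and 101 CPM in strong cells of libraries 1 and 2, against 209.9 and 207 CPM in other cells, and 506 and 556 CPM in libraries 3 and 4, against 399 and 355 CPM. Strong cells of libraries 1 and 2 thus had more Cd209a, less Irf8 and little or no Clec9a than those of libraries 3 and 4. The monocyte gene Ly6c2 was 28.6 CPM in strong and 86.3 CPM in other cells, and Lyz2, encoding lysozyme, 1275 and 7209 CPM. Of the plasmacytoid dendritic cell markers Runx2 was 8.09 CPM in strong and 16.1 CPM in other cells, and Cox6a2 5.57 and 23.6 CPM.

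In cluster 3 Cd209a was 74.6 CPM in strong and 2.92 CPM in other cells, Flt3 27.1 and 2.73 CPM, and Ly6a, an interferon-responsive surface antigen, 447 and 35.1 CPM. Pf4, a macrophage marker, was lower there, with 83.1 CPM in strong and 618 CPM in other cells, as was F13a1 with 74.6 and 526 CPM. In cluster 0 Itgax was 23.8 CPM in strong and 1.32 CPM in other cells, the decysin gene Adamdec1 91.9 and 3.07 CPM, and Mmp9, a gelatinase gene, 85.9 and 3.41 CPM. For Mmp9 library 3 stood apart, with 306 CPM in its strong cells beside 35.8, 26.1 and 30.1 CPM in those of libraries 1, 2 and 4. The 38 strong cells of the B cell-like class were 12 in library 3 and 26 in library 4. Ccr7, a homing receptor of lymphocytes and mature dendritic cells, was 167 and 198 CPM in strong cells of those libraries, against 22.5 and 24.4 CPM in the others, and H2-DMb2 417 and 218 CPM against 11.1 and 11.0 CPM. Cd79a, part of the B cell receptor, was 0 and 485 CPM in these strong cells, against 168 and 207 CPM in the others, and Ebf1 0 and 130 CPM against 243 and 251 CPM. The strong cells of library 3 in this class therefore lacked Cd79a and Ebf1.

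The ratio of Cd74 to the chains differed between strong and other cells. Ratios of UMIs from the 3-prime end compare captured transcripts and were not divided by gene length. Strong cells held 1.35 Cd74 UMIs per chain UMI in cluster 1, 1.66 in cluster 3, 1.78 in cluster 0, 1.43 in B cell-like, 1.32 in monocyte-like and 1.72 in macrophage-like cells. The other cells of the same classes held 11.4, 26.6, 19.0, 4.61, 9.93 and 6.5 Cd74 UMIs per chain UMI. In erythroid cell-like cells the ratio was 1.70 in strong and 1.33 in other cells, and in mast cell or basophil-like cells that were not strong it was 1.21. The threshold removes cells by their chains and not by Cd74, so it raises the ratio of the other cells by construction. Over all cells the ratio was 1.58 in cluster 1, 2.74 in cluster 3, 3.99 in cluster 0, 3.52 in monocyte-like, 4.31 in macrophage-like and 1.56 in erythroid cell-like cells. Without strong cells Cd74 was 528 CPM in cluster 3, 376 CPM in cluster 1, 244 CPM in cluster 0, 57.8 CPM in monocyte-like cells and 43.4 CPM in macrophage-like cells, beside 16.7 CPM in erythroid cell-like cells.

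**Figure D5:**
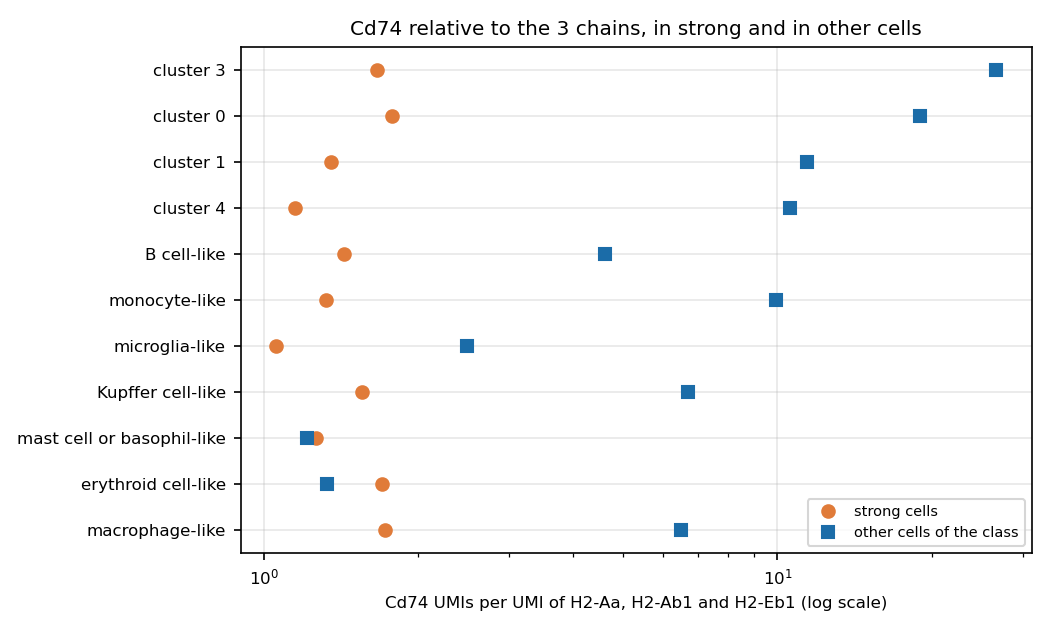
Cd74 UMIs per UMI of H2-Aa, H2-Ab1 and H2-Eb1 together, by class on a log axis, in strong cells and in the other cells of the class. Strong cells lie close together, at 1.35 in cluster 1 and 1.72 in macrophage-like cells, while other cells reach 26.6 in cluster 3 and stand at 1.21 in mast cell or basophil-like cells.

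Without strong cells H2-Ab1 was 13.2 CPM in mast cell or basophil-like and 11.4 CPM in microglia-like cells, against 3.27 CPM in macrophage-like cells. H2-Aa was 3.94 CPM in mast cell or basophil-like and 2.46 CPM in microglia-like cells, against 1.95 CPM in macrophage-like cells. Erythroid cell-like cells, given as background, had 7.09 CPM of H2-Ab1 and 3.55 CPM of H2-Aa, and epithelial cell-like cells 10.1 and 2.58 CPM, so a higher H2-Ab1 than H2-Aa was not particular to the first 2 classes. H2-Oa was 32.5 CPM in mast cell or basophil-like cells, against 1.38 CPM in macrophage-like cells.

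The genes most like the chains were ranked by Pearson's r of their log2(CPM + 10) levels with the mean of the 3 chains over 18 classes and clusters, among genes with at least 50 CPM somewhere. These share libraries and cells and the r values are a description. They were Cd74 (0.920), Ly6a (0.853), Mycbp2 (0.724), Ifi205 (0.724), Tnfsf9 (0.723), Ifi203 (0.699), Batf3 (0.677), Usp18 (0.674), Rnase6 (0.672) and Ly6d (0.666). Ciita had 0.886 but was under 50 CPM in every class, H2-DMa had 0.620 and H2-DMb1 0.581. Rnase6 was 150 CPM in cluster 1, 140 CPM in monocyte-like cells and 6.44 CPM in macrophage-like cells.

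UMIs of the lineage reporter were found in strong cells, but no background level is given, so free RNA was not told apart from the cells' own. In cluster 1 tdTomato was 47.1, 57.1, 70.7 and 78.7 CPM in strong cells of libraries 1 to 4, against 27.1, 27.6, 39.9 and 35.3 CPM in other cells. In macrophage-like cells it was 50.3 CPM in the 8 strong cells and 236 CPM in the others. Since libraries match no label, these levels cannot be set against the driver line or the day of induction.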

How the data were processed

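The labels' protocols describe droplet-based 10x single-cell RNA sequencing. The values are whole UMI counts for each gene in each of 39048 barcodes, deposited as a single matrix. Its header names Cell Ranger 3.0.1, per the file headers, but the submitters' processing notes list version 2.1.1, with mm10. No source used here says whether the authors evened out sequencing depth among the libraries.

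From these counts, barcodes with at least 1000 UMIs, 500 genes and at most 10% mitochondrial UMIs were kept (34587). Scrublet marked 215, which were removed. Counts scaled to 10000 per cell were log-transformed, and 2000 variable genes, 30 principal components and 15 neighbours gave Leiden clusters at resolution 0.6 (scanpy 1.11.5, igraph 0.11.9, scikit-learn 1.9.0, numpy 2.4.6, scipy 1.17.1), without correction between libraries. The members, the other class II chains, the class I and interferon-gamma lists, Cd1d1 and tdTomato were held out of clustering. Clusters were named from markers. UMIs were summed per class and library into CPM. Genes with at least 100 UMIs in the 2 classes together entered differences and list medians. Of the listed genes, 1 (Ifi30) was not matched to a feature. The log2 differences of the monocyte-like comparison were also computed on simulated Poisson counts, drawn at the full depth of both classes. There those of 200 changed genes among 11235 were recovered to within 0.5 in 100% of cases. The simulation held no variation between cells, libraries or class bounds, so it covers counting error only.

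The members and lists were chosen with earlier results of these data known. Named were all 7 members, the 4 most abundant genes of each list or those with at least 50 CPM and a 4-fold difference, and the 10 genes most like the chains. Genes of strong cells in unnamed clusters and the B cell-like class, H2-Oa in mast cell or basophil-like cells and levels of genes outside that rule were picked after their values were seen. Barcode numbers match no label, so no planned comparison of label groups and no test was made.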

Additional observations from a re-analysis of the deposited data

How the results depend on the processing

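The main results were recomputed under other settings: the median log2 difference of the members between monocyte-like and macrophage-like cells (0.46), the share of strong cells in monocyte-like cells (0.252%) and in macrophage-like cells (0.134%), and the share of all strong cells in these 2 classes (1.31%). With the per-cell marker gate they were 0.99, 1.28%, 0.320% and 6.35%. With stricter limits on cells (2000 UMIs, 1000 genes, 5% mitochondrial UMIs) they were 3.38, 7.67%, 0.0413% and 61.3%, and with genes centred within libraries 2.56, 4.47%, 0.0576% and 26.3%. The monocyte-like class then took in cells of clusters 0, 1 and 3, as described above. With doublets kept the monocyte-like share was 0.674%. At 500 CPM the macrophage-like share was 0.368% and the share of all strong cells 2.36%. With Cd74 added to the chains the shares were 1.45% in monocyte-like cells, 0.518% in macrophage-like cells and 2.66% of all strong cells. Leaving out each library in turn gave 0.29 to 0.67 for the median, 0.201% to 0.304% and 0.0882% to 0.183% for the shares, and 1.1% to 1.52% of all strong cells. Of the values under other settings, 42 for these results and 79 for single members stayed within a reference range, and 18 and 26 fell outside it. For log2 differences and their median that range ran from the lowest to the highest library. For shares it was the exact binomial interval of the main value, which covers counting error and not the spread between libraries. H2-DMa, the member past 2-fold, stayed between 1.69 and 2.78. Among smaller ones, leaving out strong cells gave -0.0024 for H2-Aa, -0.03 for H2-Ab1 and -0.07 for H2-Eb1 in monocyte-like over macrophage-like cells. Ciita, at -0.0043 and under the UMI minimum, was 0.03 with the marker gate, 0.35 with stricter limits and 0.22 with centring. The minimum of 10 chain UMIs and the values without strong cells were added after the data were seen. No paired analysis was possible because the barcode numbers match no sample label and no test was made. Depth limits the rare classes: 3 UMIs of Ciita in monocyte-like cells cannot show a difference from 11 in macrophage-like cells.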
